A study of Mus musculus with 9 samples.

Results

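Stearic acid, a long saturated fatty acid, was compared with no treatment in β-TC6 cells, an insulin-secreting mouse line grown from an insulinoma of transgenic animals. Of the 9 libraries in the series, 6 belong to this comparison, 3 with stearic acid and 3 untreated controls, and the other 3 had palmitic acid, a shorter saturated acid. The acids were used at 400 µmol/L over 24 h, together with 1.3% bovine serum albumin (BSA), a carrier protein for fatty acids. The controls are labelled untreated. Whether they had BSA is unstated, so the acid and the BSA cannot be told apart. The cells are a tumour line rather than islet tissue, and the labels do not say that the 3 libraries of a group came from separate cultures. The p-values therefore measure the spread between these libraries, which may be technical. The unit described here is the locus, meaning all transcripts that share a locus identifier in the deposited table of long non-coding RNAs (lncRNAs). The table lists 9635 loci, of which 7404 had a count and 3029 passed a filter on low counts and were tested.

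lncRNAs are transcripts without a long open reading frame. Some act on the genes beside them, some build nuclear bodies or hold proteins together, and for most no role is known. An antisense lncRNA runs across a coding gene on the other strand, a head-to-head lncRNA starts close to the start of a gene on the other strand, and an intergenic lncRNA lies clear of genes. In pancreatic β cells, long exposure to saturated fatty acids is known to impair insulin secretion and to cause stress and cell death, which is called lipotoxicity. Loci without a name of their own are called here by the nearest coding gene of the GENCODE annotation (mouse release M21, GRCm38), which says where a locus lies and not what it does.

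The lncRNA counts summed to between 1839123 and 2870275 in the control libraries and between 1537431 and 2418397 in the stearic acid libraries, and between 4644 and 5127 loci had a count in each. Levels are given in CPM, counts set to an equal library size. In a single library 3 counts are worth 1.05 to 1.95 CPM, and over the 3 controls together 0.44 CPM, the floor behind each lower bound on a rise from control values at 0. Floors cover counting error only. Libraries of the same group correlated at 0.941 to 0.962 over log CPM of loci, a correlation across loci that are not independent replicates. The first principal component (32.1% of the variance) placed the controls at −22.8 to −21.7 and the stearic acid libraries at 13.8 to 17.1. Replicate 2 of stearic acid lay away from the rest, with the smallest total and a score of −26.7 on the next component, where the other libraries lay between −4.29 and 11.6. The total count of changed loci is therefore also given without it, while counts by list, class, position or level were not recomputed.

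Stearic acid changed the level of 359 of the 3029 tested loci, 11.9% of them, by edgeR's quasi-likelihood test at a Benjamini-Hochberg adjusted p under 0.05. Of these, 195 (6.44%) rose and 164 (5.41%) fell. The median log2 change was 1.34 among the loci that rose, with the middle 50% between 0.79 and 2.04, and −0.96 among those that fell, with the middle 50% between −1.39 and −0.68. Over all tested loci the median was 0.0057. A change of over 2-fold was seen at 122 of the loci that rose and 76 of those that fell, and of over 4-fold at 50 and 15. These sizes do not compare rises and falls at equal level. With the tested loci split by level into 3 groups of equal size, rises and falls had medians of 0.77 and −0.75 in the highest group. In the middle group the medians were 1.36 and −1.36. In the lowest group, with 42 rises and 11 falls, they were 2.68 and −2.06. The counts of changed loci were 180 higher and 151 lower without stearic acid replicate 2. They were 124 and 110 without control replicate 2, which gave the smallest total of any single library left out. All 3 stearic acid libraries lay above all 3 controls at 188 of the 195 loci that rose, and below them at 159 of the 164 that fell. Such separation was found at 889 (29.3%) of all tested loci, above at 14.9% and below at 14.4%. In bulk RNA, fewer cells that express a locus and less of its RNA per cell cannot be told apart.

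The median control level was 15.4 CPM among the loci that rose and 58.5 CPM among those that fell, against 15.5 CPM over all tested loci. With stearic acid the medians were 36.4, 31.8 and 15.2 CPM in the same order. Summed over the 195 loci that rose, the control libraries held 20151 to 22327 CPM and the stearic acid libraries 31240 to 34969 CPM. Summed over the 164 loci that fell, they held 46700 to 65485 CPM and 29169 to 37673 CPM. Single loci weigh heavily in these sums. Among the falls, the locus near Snx6 alone held 13293 to 26911 CPM in the controls and 9870 to 16227 CPM with stearic acid. Among the rises, the locus antisense to Frmd8 held 7011 to 9609 CPM and 10200.5 to 11662 CPM. Both calls were lost without certain single libraries, as described below. These medians and sums describe loci chosen by their change between the same libraries and are no test of it.

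**Figure D1:**
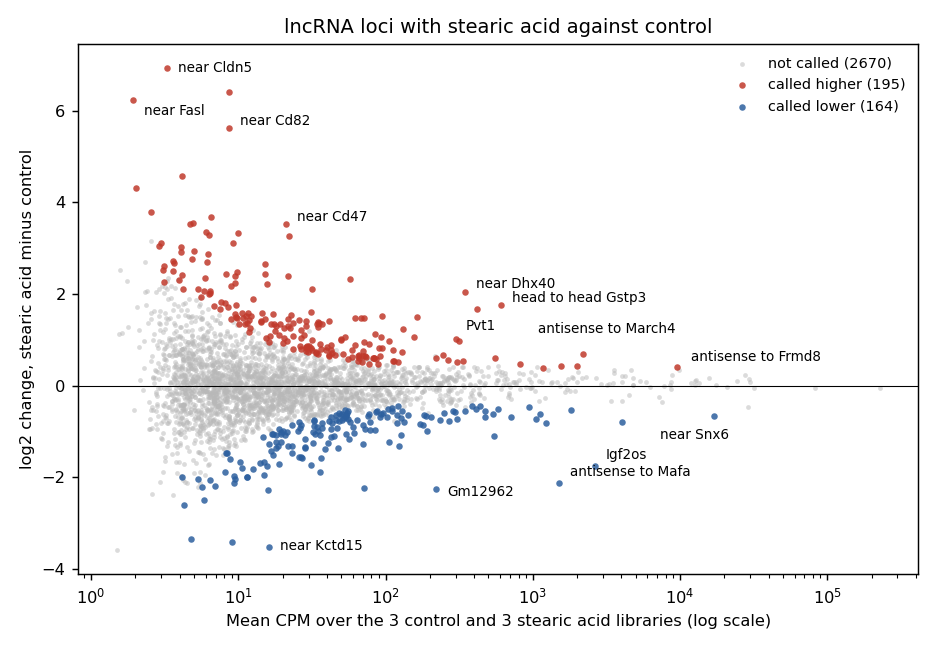
Change of each tested lncRNA locus with stearic acid (vertical axis, log2 of stearic acid over control) against its mean level over the 6 libraries (horizontal axis, CPM, log scale). Red points are the 195 loci that rose, blue points the 164 that fell and grey points the loci that did not pass. The smallest changes that passed are found at high levels.

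The largest falls at loci with a level at or above the median of the changed loci were led by Gm12962, an intergenic lncRNA of chromosome 4 with no described role in the annotation, by Gm27168 on chromosome 8, and by a lncRNA antisense to Mafa. Mafa encodes a transcription factor that drives insulin expression in mature β cells. The Mafa antisense locus (XLOC_053651, chr15:75745489-75746963, plus strand, 2 exons) held 2448, 2597 and 2358 CPM in the controls and 576, 637 and 492 CPM with stearic acid. The groups lay far apart, and the mean fell from 2468 ± 121 to 568 ± 72.9 CPM (SD, n = 3). This is 4.34-fold lower, a log2 change of −2.12 ± 0.13 (SE, edgeR adjusted p = 6.85e-11). The libraries were strand-specific, but the strand setting of the authors' counting is unstated. With that setting unknown, lncRNA reads and reads of the coding gene cannot be told apart in these counts. This holds at this and every other locus antisense to a coding gene.

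Gm12962 (XLOC_106337, chr4:131533007-131677845, minus strand, 7 transcripts) held 399.5, 384 and 309.7 CPM in the controls and 79.2, 77.8 and 72.5 CPM with stearic acid. The stearic acid libraries were close together and all below the controls, with a log2 change of −2.25 ± 0.17 (edgeR adjusted p = 1.18e-09). Gm27168 (XLOC_144632, chr8:86919424-86922681, minus strand), nearest to N4bp1, held 96.7, 143 and 111 CPM in the controls and 29.9, 26.8 and 18.9 CPM with stearic acid. Again no libraries overlapped, at a log2 change of −2.22 ± 0.21 (edgeR adjusted p = 7.29e-08).

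Igf2os is a lncRNA on the strand opposite the imprinted growth factor gene Igf2, beside the insulin gene Ins2. It was among the 5 changed loci with the most counts (XLOC_134310, chr7:142658897-142670356, plus strand, 5 transcripts). It held 3811, 4545 and 3943 CPM in the controls and 1101, 1427 and 1113 CPM with stearic acid. All stearic acid libraries lay below all controls, 3.38-fold lower on the mean, with a log2 change of −1.76 ± 0.13 (edgeR adjusted p = 1.18e-09).

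Of the other named falls, the locus 358 bp from Usp31, a deubiquitinase gene, held 55.6, 52.6 and 60.5 CPM in the controls and 11.4, 14.8 and 18.9 CPM with stearic acid (a log2 change of −1.89 ± 0.24, edgeR adjusted p = 7.31e-06). The locus 6290 bp from Gclc, which encodes the catalytic subunit of the enzyme that starts glutathione synthesis, held 71.1, 46.3 and 47.9 CPM against 16.6, 12.1 and 25.1 CPM (−1.58 ± 0.27, edgeR adjusted p = 3.46e-04). In both, the lowest control was above the highest stearic acid library. The locus near Rtn4r, the gene of a receptor for inhibitors of axon growth, changed by −1.38 ± 0.25 (edgeR adjusted p = 5.9e-04). The locus near Xcl1, a chemokine gene, changed by −1.37 ± 0.23 (edgeR adjusted p = 3.46e-04), and the groups of neither locus overlapped.

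Of the 8 largest rises at loci with a level at or above the median of the changed loci, 7 were intergenic and 1 was antisense. Gm11588 (XLOC_000535, chr1:61440101-61477251, plus strand, 6 transcripts) lies 161573 bp from Pard3b, a cell polarity gene. It held 15.5, 20.0 and 21.2 CPM in the controls and 110.1, 86.5 and 89.0 CPM with stearic acid. The groups did not overlap, and the mean was 5.04-fold higher, with a log2 change of 2.33 ± 0.19 (edgeR adjusted p = 7.91e-09).

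A locus of 1 transcript lies 3912 bp from Dhx40, a gene of the DEAH-box RNA helicase family (XLOC_021670, chr11:86811658-86816394, plus strand). It held 119.9, 152 and 132 CPM in the controls and 583, 572 and 516 CPM with stearic acid. The stearic acid libraries lay far above the controls, at a log2 change of 2.05 ± 0.14 (edgeR adjusted p = 5.59e-10). A locus head to head with Gstp3, a glutathione S-transferase gene (XLOC_078327, chr19:4061040-4069495, plus strand), held 284, 277 and 277 CPM in the controls and 1005, 909.5 and 916 CPM with stearic acid. Libraries of the same group were close together here, and the log2 change was 1.76 ± 0.13 (edgeR adjusted p = 1.18e-09).

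A locus antisense to Csmd3, the gene of a large membrane protein, held 215, 159.8 and 225 CPM in the controls and 756, 424 and 744 CPM with stearic acid (XLOC_053499, log2 change 1.68 ± 0.18, edgeR adjusted p = 8.64e-07). Its groups did not overlap, and the lowest stearic acid value was that of replicate 2, the library that lay away from the rest. A locus 13547 bp from Cd47, which encodes a surface protein that restrains phagocytosis, held 1.94, 4.38 and 3.71 CPM against 46.0, 30.8 and 39.9 CPM (XLOC_061288, 3.52 ± 0.33, edgeR adjusted p = 6.58e-08). Here too the groups lay far apart, and the mean was 11.6-fold higher. The control values of this locus were low, and it could pass the filter on low counts only through libraries with an acid. The remaining named rises of 2.77-fold to 2.84-fold were Gm14264, the locus near Tex36, the locus near Gm10320 and C130083M11Rik, each with all stearic acid libraries above all controls (edgeR adjusted p from 2.63e-07 to 4.26e-06).

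Only 2 loci that rose had no count in any control, and none that fell had no count in all stearic acid libraries. Loci at 0 in the controls can pass the filter on low counts only through libraries with an acid. The locus 33885 bp from Cldn5, a tight junction gene, held 0 CPM in the controls and 10.9, 4.69 and 4.12 CPM with stearic acid. Set against 3 counts in all controls together, this is at least 14.9-fold higher (edgeR adjusted p = 9.35e-04). The locus 27669 bp from Fasl, the gene of a ligand that triggers cell death, held 0 CPM in the controls and 2.37, 1.34 and 7.83 CPM with stearic acid, at least 8.74-fold higher (edgeR adjusted p = 0.00804). Without stearic acid replicate 3, which had the highest value, the locus near Fasl no longer passed (edgeR adjusted p = 0.0824) and the bound was 4.22-fold.

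**Figure D2:**
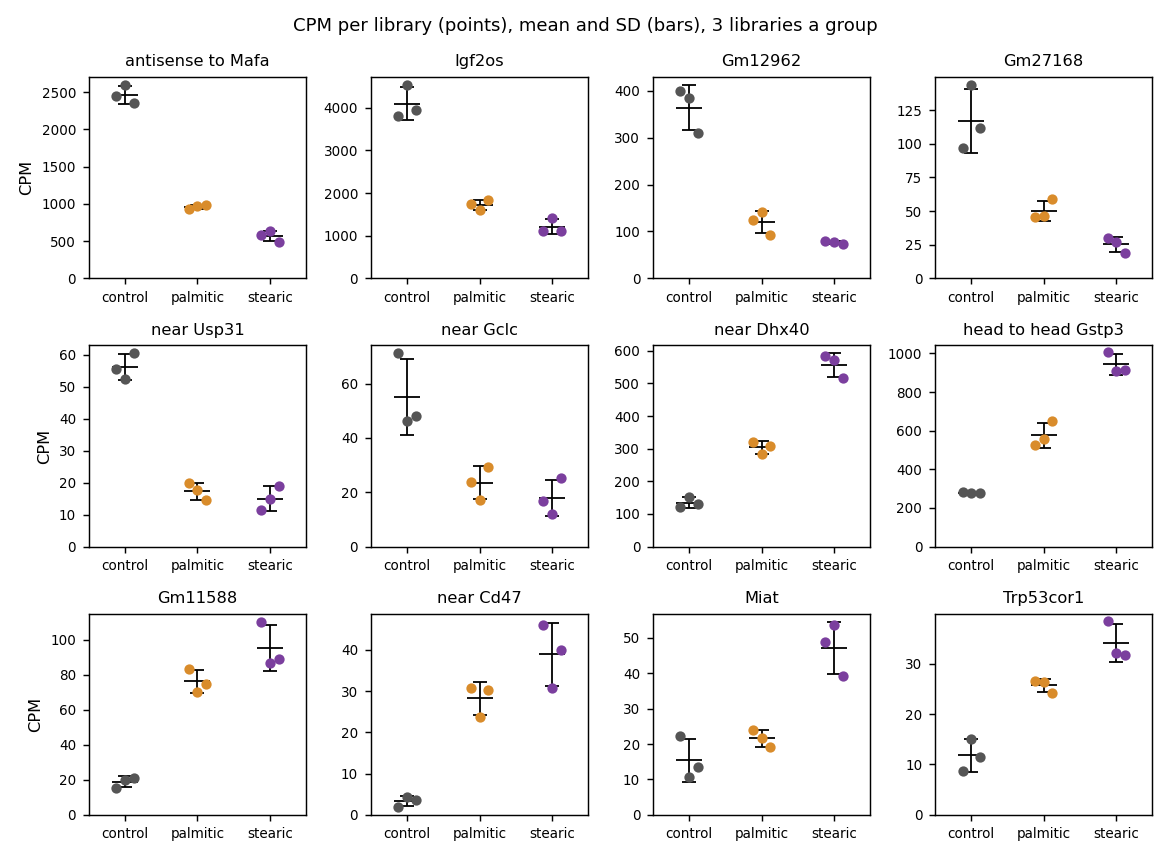
CPM of 12 named loci in each library (points) with the group mean and SD (bars), for control, palmitic acid and stearic acid, 3 libraries a group; each vertical axis starts at 0. In each of the 12 panels all stearic acid libraries lie beyond all controls. The 6 loci that fell are the upper row and the left of the middle row.

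Of the 5 changed loci with the most counts, Igf2os is described above, and the other 4 had absolute log2 changes under 0.80. The locus 7727 bp from Snx6, a gene of endosomal sorting (XLOC_030370), held 13293, 22528.5 and 26911 CPM in the controls and 9870, 13712 and 16227 CPM with stearic acid. The groups overlapped, and the log2 change was −0.66 ± 0.19 (edgeR adjusted p = 0.0273). The call was lost without control replicate 2, control replicate 3 or stearic acid replicate 1 (edgeR adjusted p = 0.121, 0.187 and 0.129), in a fit of the 6 libraries alone (edgeR adjusted p = 0.065) and by DESeq2 (adjusted p = 0.161). Gm43534 held 3229, 5469 and 6676 CPM against 2465, 2644 and 3802 CPM, also overlapping (−0.79 ± 0.20, edgeR adjusted p = 0.00911). It was lost without control replicate 2 or 3 (edgeR adjusted p = 0.0552 and 0.0863) and by DESeq2 (adjusted p = 0.0765). In both loci control replicate 1 was the lowest control.

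A locus antisense to March4, a ubiquitin ligase gene, rose from 1444, 1717 and 1874 CPM to 3055, 1893 and 3141 CPM (log2 change 0.68 ± 0.16, edgeR adjusted p = 0.00743). Replicate 2 was the lowest stearic acid library, just above the controls, and the call was lost without stearic acid replicate 3 (edgeR adjusted p = 0.0555). A locus antisense to Frmd8 (XLOC_078380, chr19:5797562-5856471, plus strand) held 9609, 7011 and 7859 CPM in the controls and 11662, 10200.5 and 10658.5 CPM with stearic acid (0.41 ± 0.12, edgeR adjusted p = 0.0293). The groups did not overlap, but the call was lost without control replicate 2 or 3 or stearic acid replicate 1 or 3 (edgeR adjusted p = 0.172, 0.116, 0.113 and 0.0618), with library size alone (0.0944) and in a fit of the 6 libraries alone (0.0619). This locus runs across Neat1 and part of Malat1, abundant nuclear lncRNAs on the minus strand, which had log2 changes of 0.41 and 0.35 and did not pass (edgeR adjusted p = 0.0837 and 0.078). The strand setting of the authors' counting is unstated, so reads of the Frmd8 antisense locus and of Malat1 and Neat1 cannot be told apart.

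Among loci at the listed β-cell genes, those that changed all fell. This rests on the choice of genes. The locus antisense to Vgf, a neuroendocrine gene outside the list, rose (see the closing section), and several of the listed loci lie at Pcsk2. Of 21 tested loci at or within 10 kb of such genes, 0 rose and 5 fell, beside 6.44% and 5.41% of all tested loci, and 4 of the 21 had a log2 change above 0. The median was −0.28, beside 0.0057 over all tested loci. Besides the Mafa antisense locus and Igf2os, the 5 were loci near Scg2 and antisense to Pcsk2 and Chga. Without the strand setting, reads of the loci across Mafa, Igf2, Pcsk2 and Chga cannot be told apart from reads of those genes. Scg2 encodes a secretogranin and Chga chromogranin A, both proteins of secretory granules, and Pcsk2 encodes a convertase that cleaves proinsulin. The Scg2 locus held 47.9, 28.7 and 46.0 CPM in the controls and 18.5, 14.1 and 15.7 CPM with stearic acid, without overlap (log2 change −1.34 ± 0.31, edgeR adjusted p = 0.00553).

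The Pcsk2 antisense locus (XLOC_086085) held 149, 119 and 171 CPM against 73.1, 102 and 108 CPM (−0.63 ± 0.17, edgeR adjusted p = 0.0176), and the Chga antisense locus 313, 345 and 369 CPM against 214, 275 and 214 CPM (−0.55 ± 0.14, edgeR adjusted p = 0.0122). Neither pair of groups overlapped. The Pcsk2 call was lost without control replicate 3 or stearic acid replicate 1 (edgeR adjusted p = 0.112 and 0.111), and the Chga call without control replicate 3 or stearic acid replicate 1 or 3 (edgeR adjusted p = 0.0657, 0.0576 and 0.0648). Of the other loci at Pcsk2, Pcsk2os1 and Pcsk2os2 had log2 changes of −0.26 and −0.25 and a further antisense locus (XLOC_086087) 0.02, and none passed (edgeR adjusted p = 0.168, 0.218 and 0.954). Those at Slc30a8, the zinc transporter of insulin granules, at Pdx1 (Plut) and at Pax6 (Pax6os1) had log2 changes of −0.34, −0.29 and −0.12 and did not pass. The other 3 loci with a value above 0 were head to head with Chgb, a granin gene (0.69), near the transcription factor gene Isl1 (0.17) and Gm26755, antisense to Neurod1 (0.32), and did not pass either.

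Summed over the 21 loci at β-cell genes, the level was 17270 to 17718 CPM in the controls and 10959 to 11439 CPM with stearic acid. Without the Mafa antisense locus and Igf2os, a choice made with the values known, the other 19 loci summed to 10255 to 11459 CPM and 9268 to 9762 CPM. Markers of other pancreatic cells could be read only through lncRNAs beside them, since coding genes were not analysed here. Gm20554, head to head with the α-cell transcription factor gene Irx2, held 63.8, 64.8 and 63.5 CPM against 95.8, 87.1 and 84.4 CPM. The groups did not overlap, and the change just passed (log2 change 0.48 ± 0.16, edgeR adjusted p = 0.0479). Leaving out any 1 of the 6 libraries lost this call, with an edgeR adjusted p between 0.0712 (without stearic acid replicate 2) and 0.172 (without stearic acid replicate 1). The summed level of the 2 tested loci at α-cell genes was 67.2 to 71.6 CPM in the controls and 90.6 to 98.7 CPM with stearic acid. A single acinar and a single macrophage locus did not pass, and no locus at δ, PP, duct, fibroblast or endothelial genes was tested. The part of other cell types in the result was not tested.

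Stress-related lncRNAs with a known name rose or did not pass. Of 6 tested stress and p53 lncRNAs, 2 rose and 0 fell, with a median log2 change of 0.41, where 6.44% and 5.41% of all tested loci rose and fell. Trp53cor1, or lincRNA-p21, lies beside the cell cycle inhibitor gene Cdkn1a and is known as a target of p53. It held 8.7, 15.1 and 11.5 CPM in the controls and 38.4, 32.2 and 31.7 CPM with stearic acid. All stearic acid libraries were above all controls, with a log2 change of 1.53 ± 0.26 (edgeR adjusted p = 3.46e-04). Pvt1, a lncRNA beside the oncogene Myc, held 229.7, 202 and 205 CPM against 394, 402 and 455 CPM, again without overlap (0.98 ± 0.13, edgeR adjusted p = 2.14e-05). Lncpint, Tug1, Meg3 and Neat1 had log2 changes between 0.03 and 0.41 and did not pass.

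At loci of p53 and apoptosis genes, 0 of 8 tested rose and 1 fell, with 3 of the 8 above 0 and a median log2 change of −0.14. A single fall among 8 is near the 5.41% over all tested loci. The fall was at E230016M11Rik, 5454 bp from Gadd45a, a growth arrest gene that DNA damage induces. It held 37.2, 36.5 and 28.6 CPM in the controls and 15.7, 10.7 and 10.3 CPM with stearic acid. The groups lay apart, at a log2 change of −1.47 ± 0.26 (edgeR adjusted p = 5.83e-04). The locus head to head with Mdm2, the gene of the ligase that degrades p53, changed by 0.11 and did not pass.

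Among 8 abundant nuclear lncRNAs 1 rose, Miat, which is known from heart and retina. Miat (XLOC_116951, chr5:112213228-112229395, minus strand, 9 transcripts) held 22.2, 10.7 and 13.4 CPM in the controls and 48.9, 53.6 and 39.1 CPM with stearic acid, 3.06-fold higher without overlap (log2 change 1.61 ± 0.26, edgeR adjusted p = 2.17e-04). The nuclear list had a median log2 change of 0.25. Of the 9 tested islet lncRNAs, Miat and Pvt1 rose and Igf2os fell, and of the 9 imprinted lncRNAs 1 fell, again Igf2os. These lists share members, and single calls among 8 or 9 loci are near the shares over all tested loci (6.44% rose, 5.41% fell).

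Among 3 immune lncRNAs, Lncenc1, a lncRNA first described in mouse embryonic stem cells, rose from 0, 2.44 and 2.23 CPM to 11.9, 12.7 and 7.41 CPM (log2 change 2.69 ± 0.63, edgeR adjusted p = 0.00607). Its control values lie near the level of 3 counts in a library. The single tested locus at inflammation genes lies antisense and head to head to Map3k8, a kinase gene of inflammatory signalling. It rose from 7.74, 4.38 and 2.23 CPM to 27.5, 28.8 and 20.2 CPM, with no overlap (2.44 ± 0.38, edgeR adjusted p = 1.38e-04). Lncenc1 and the Map3k8 locus could pass the filter on low counts only through libraries with an acid. Of 5 immune lncRNAs and 7 loci at inflammation genes, 3 and 1 were tested. These calls therefore say nothing of the lists as groups, and 6.44% of all tested loci rose. None passed among the 6 loci at endoplasmic reticulum stress genes (median log2 change 0.25) or the 6 at sterol and desaturase genes (0.07). The latter include loci antisense to Scd2, a gene of the desaturase that acts on stearic acid, with log2 changes of 0.06 to 0.20. Nor did any pass of the 3 at cell cycle genes (−0.24) or the 3 loci of snoRNA hosts (0.42). Of the host loci, XLOC_135347 and XLOC_135567 both carry the name Snhg14 (0.13 and 0.42), and the highest value was 1.62. No locus at fatty acid oxidation or PPAR genes was tested.

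**Figure D3:**
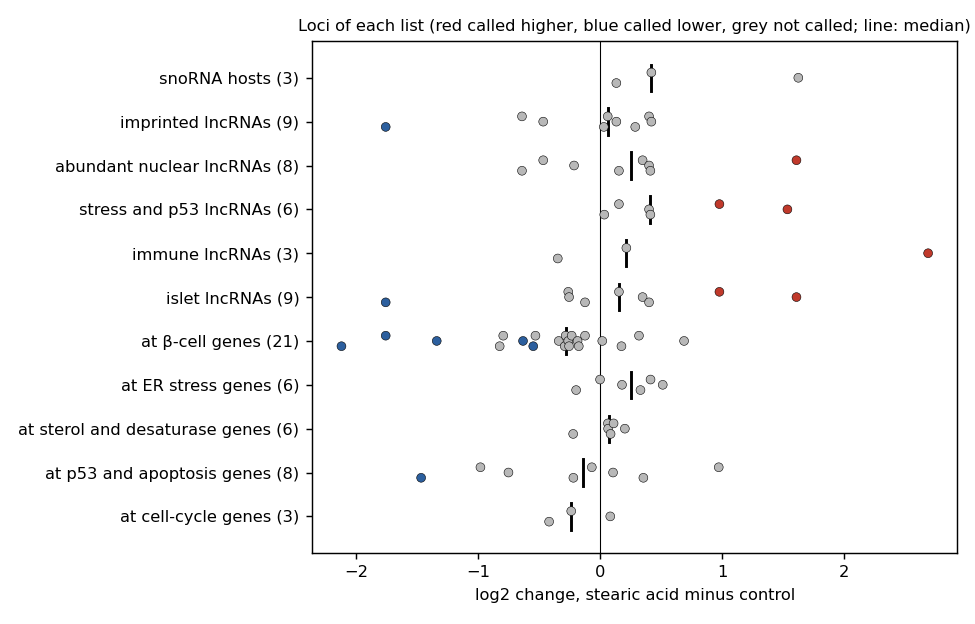
log2 change with stearic acid of every tested locus (points) in the 11 lists with 3 or more tested loci; red points rose, blue fell and grey did not pass, and the black line is the list's median. The number of tested loci is in brackets. The 5 blue points at β-cell genes lie between −2.12 and −0.55.

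By class, 1702 of the tested loci were intergenic, 902 antisense, 143 intronic and 282 held transcripts of more than 1 class. Among intergenic loci 133 rose and 88 fell, which is 7.81% and 5.17% of them. Among antisense loci 34 rose and 48 fell, which is 3.77% and 5.32%. Intronic loci split 6 and 9, and mixed loci 22 and 19. The intergenic loci that rose had a median log2 change of 1.38 and the antisense ones of 1.06, and the falls had medians of −1.03 and −0.82. The authors' table marks 516 tested loci as known, of which 42 rose and 24 fell (12.8%), beside 153 and 140 of the 2513 others (11.7%).

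By position, 783 tested loci started within 2 kb of a coding gene on the other strand, head to head. Of these, 41 rose and 22 fell, a share called of 8.05%. Of 853 loci that overlap a coding gene on the opposite strand 36 rose and 58 fell (11.0%), and this was the class of position where falls outnumbered rises. Of 474 loci farther than 50 kb from any coding gene 43 rose and 33 fell (16.0%), and of 439 between 10 and 50 kb away 36 rose and 33 fell (15.7%). Within 10 kb without overlap, 34 rose and 18 fell of 426 (12.2%). Of 54 loci over a gene on the same strand, 5 rose and 0 fell.

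The share called followed the counts behind a locus. The tested loci were split by level into 3 groups of equal size. In the group with the lowest levels 42 rose and 11 fell of 1010 (5.25%), in the middle group 67 and 48 of 1009 (11.4%), and in the highest 86 and 105 of 1010 (18.9%). The smallest change that passed was 1.68 (rise) and −1.46 (fall) in the lowest group, and 0.38 and −0.45 in the highest, so smaller changes at weakly expressed loci were not detectable at this depth. Loci of 1 transcript were called in 8.4% of cases and loci of 4 or more in 20.3%. Loci of 2 exons were called in 9.52% and those of 4 or more in 16.9%. The median span was 10249 bp for loci that rose, 10383 bp for those that fell and 7400 bp for all tested. Whether class, position or structure differ apart from the counts behind a locus was not tested.

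**Figure D4:**
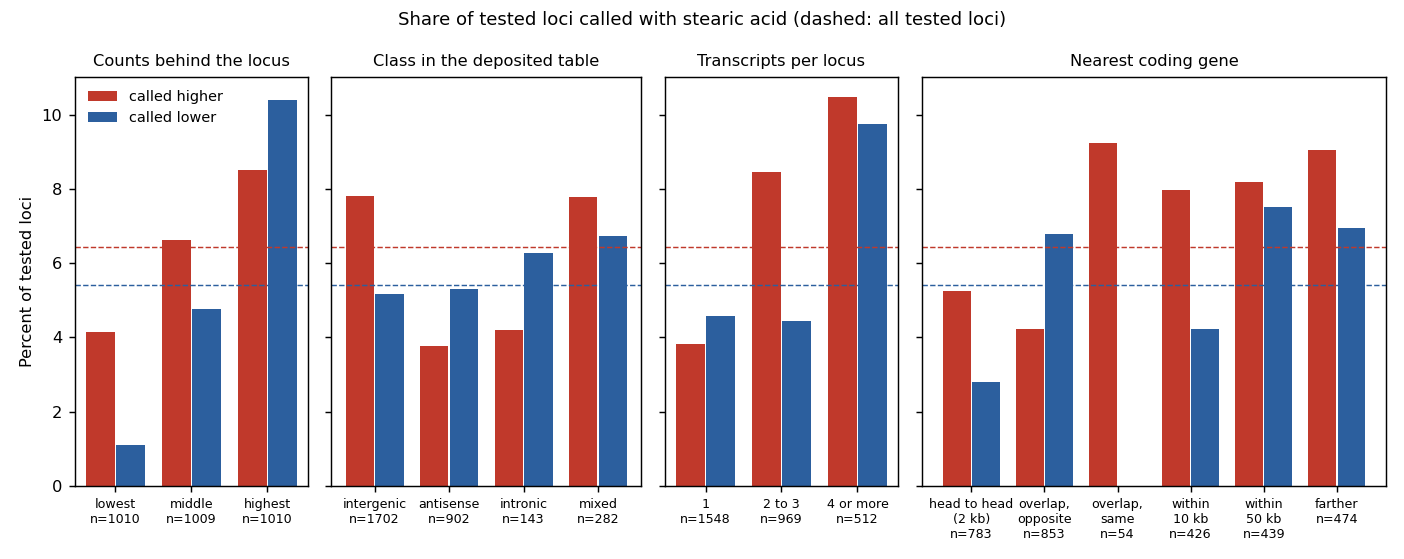
Percent of tested loci that rose (red) or fell (blue) with stearic acid, by group of expression level, by class in the deposited table, by number of transcripts and by position to the nearest coding gene; n is the number of tested loci and the dashed lines mark all 3029 loci (6.44% and 5.41%). Bars start at 0. The highest group holds 18.9% changed loci and the lowest 5.25%.

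Most pairs of changed loci that lie close together moved the same way, which was not tested. There were 39 pairs of changed loci within 100 kb of each other, and in 31 (79.5%) both moved in the same direction, 14 upward and 17 downward. Of 1198 pairs of tested loci at that distance, 58.5% had the same sign, but most of those loci did not pass, so the shares are not alike. The 39 pairs hold 64 loci, and some loci are in more than 1 pair. All 11 pairs that overlap in position moved together, and all 11 lie on opposite strands. Gm12962 overlaps a plus-strand locus that fell by 3.35 on the log2 scale, and Gm27168 overlaps a locus near N4bp1 that fell by 1.28. C130083M11Rik overlaps 9230114K14Rik, which rose (log2 change 1.23 ± 0.15). Without the strand setting of counting, the reads of such partners cannot be told apart.

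At Cd82, a tetraspanin gene on chromosome 2, 3 neighbouring loci rose and 1 fell. They were picked with their values known. Gm13807, 1116 bp from Cd82, held 5.8, 3.9 and 2.97 CPM in the controls and 40.3, 30.2 and 49.8 CPM with stearic acid (a log2 change of 3.27 ± 0.33, edgeR adjusted p = 2e-07). The locus 9842 bp from Cd82 rose from 0.48, 0 and 0.37 CPM to 16.1, 19.4 and 15.7 CPM (5.61 ± 0.63, edgeR adjusted p = 1.4e-06), from control values under 3 counts in a library. Gm10804, antisense to Cd82, rose by a log2 change of 1.05 ± 0.20, and the locus near Tspan18, a further tetraspanin gene, changed by −3.41 ± 0.64. In none of the 4 loci did the groups overlap. Gm13807 and the locus 9842 bp from Cd82 could pass the filter on low counts only through libraries with an acid.

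**Figure D5:**
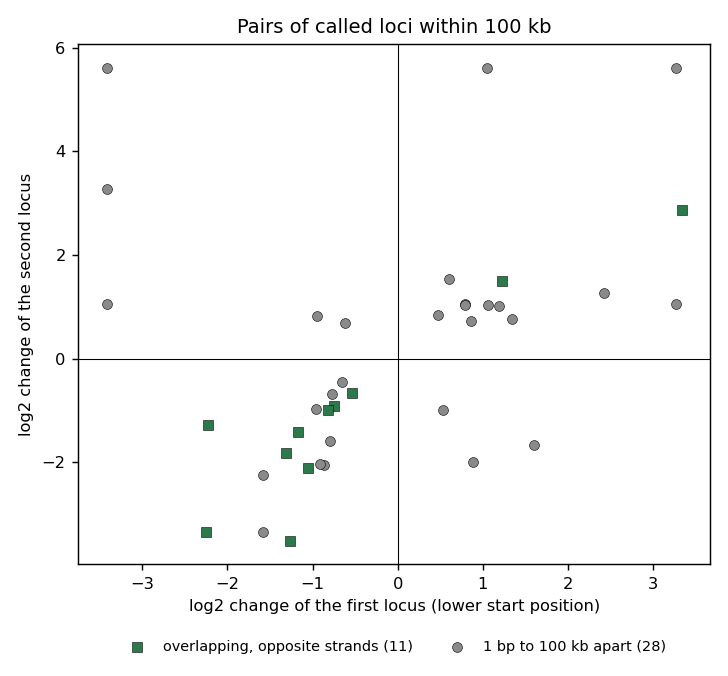
log2 change of both members of the 39 pairs of changed loci within 100 kb; green squares are the 11 pairs that overlap in position, on opposite strands, and grey circles the 28 others. Of the 39 pairs 31 lie in the quadrants where both rose or both fell, all 11 overlapping pairs among them.

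The bases before the start of a transcript, its promoter, are where factors bind that set its level. Windows ran from 250 bases before to 50 after a RefSeq start (GRCm38.p6) that lay within 2 kb of the start of the locus. They were available for 484 tested loci, of which 41 rose and 20 fell. Trp53cor1 and Pvt1 had no such window and were not scanned. On either strand, the E-box CACGTG was in the windows of 3 loci that rose and 4 that fell, beside 11.8% of the tested and 7.15% of all 32851 windows. The sterol response element TCACNCCAC was in 2 and 0 (1.24% and 1.24%), and the C/EBP-ATF response element TGATGNAAN in 1 and 1 (2.07% and 3.95%). The NF-kB site was in 3 and 0 (10.1% and 8.46%). The pair of p53 half-sites and the PPAR direct repeat, with up to 1 mismatch, were in none, beside 0% and 0.62% of the tested and 0.0731% and 0.554% of all windows. A match describes the letters and is not evidence of binding, and the pair of E-box windows shown next belongs to a locus that rose and a locus that fell.

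C130083M11Rik is shown as the named rise with a matched window (chr5:52216384-52216683, minus strand, start 539 bp from the start of the deposited locus, sterol element in capitals). It held 93.8, 83.8 and 80.2 CPM in the controls and 248, 221 and 254 CPM with stearic acid, with no overlap (log2 change 1.49 ± 0.15, edgeR adjusted p = 2.63e-07). Firre, a nuclear lncRNA of the X chromosome that organises chromosome contacts, and Dleu2, the host transcript of a microRNA cluster that restrains the cell cycle are shown for their E-box, in capitals, and were picked with their values known. Firre (chrX:50635272-50635571, minus strand) rose from 24.7, 36.5 and 25.3 CPM to 53.6, 52.9 and 47.8 CPM (0.84 ± 0.22, edgeR adjusted p = 0.0149). Dleu2 (chr14:61682324-61682623, minus strand) fell from 726, 559 and 658 CPM to 499.6, 292 and 462 CPM (−0.63 ± 0.16, edgeR adjusted p = 0.0115). The groups of neither overlapped. The windows read 5′ to 3′ on the strand of the gene.
C130083M11Rik: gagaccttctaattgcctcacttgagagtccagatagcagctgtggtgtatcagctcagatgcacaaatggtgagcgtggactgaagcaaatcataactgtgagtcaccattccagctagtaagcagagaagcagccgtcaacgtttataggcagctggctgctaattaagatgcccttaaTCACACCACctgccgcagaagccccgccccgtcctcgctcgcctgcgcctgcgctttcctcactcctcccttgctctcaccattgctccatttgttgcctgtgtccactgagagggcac
Firre: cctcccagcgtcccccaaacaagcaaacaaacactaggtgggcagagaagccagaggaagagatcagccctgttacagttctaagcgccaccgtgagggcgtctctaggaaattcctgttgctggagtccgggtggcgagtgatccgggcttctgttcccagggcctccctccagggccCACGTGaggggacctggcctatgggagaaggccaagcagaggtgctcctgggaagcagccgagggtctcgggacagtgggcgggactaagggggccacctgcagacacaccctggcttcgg
Dleu2: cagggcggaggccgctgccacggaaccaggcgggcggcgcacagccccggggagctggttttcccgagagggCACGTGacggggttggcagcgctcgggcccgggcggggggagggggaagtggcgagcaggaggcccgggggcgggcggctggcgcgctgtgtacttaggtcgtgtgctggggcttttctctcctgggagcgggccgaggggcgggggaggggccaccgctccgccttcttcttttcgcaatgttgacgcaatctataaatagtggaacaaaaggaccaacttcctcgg

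Single transcripts gave fewer calls than loci. Of 4426 tested transcripts 63 (1.42%) changed, 36 higher (0.813%) and 27 lower (0.61%), by edgeR at an adjusted p under 0.05. This count fell to between 8 (without control replicate 3) and 33 (without stearic acid replicate 1) when 1 library was left out. Of the 63, 60 lie in changed loci, and 59 of these moved in the direction of their locus. Of the 359 changed loci 308 have no transcript that passed. Of the 130 changed loci with a single transcript, 115 were not called in the fit of transcripts, where the biological coefficient of variation was 0.564 instead of 0.204.

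In some loci the shares of expected counts by transcript differed between the groups. Expected counts divide reads among overlapping transcripts, and this division also varied between libraries of a group. At Miat, TCONS_00203907 held 23.8, 21.7 and 0 counts in the controls and TCONS_00203908 held 0, 0.32 and 25.6. A change of transcripts and a change in the division of reads cannot be told apart. At the locus near Usp31, TCONS_00239170 fell from 50.7, 58.2 and 114.6 counts to 7.22, 5.17 and 13.8 counts (log2 change −2.90 ± 0.37, edgeR adjusted p = 0.0119). TCONS_00239172 fell from 64.3, 33.0 and 46.8 counts to 0, 0 and 3.32 counts (edgeR adjusted p = 0.0357). TCONS_00239171 held 0, 16.8 and 0.64 counts in the controls and 16.8, 16.8 and 28.9 counts with stearic acid and did not pass, and its share of the locus was 5.33% ± 8.88 in the controls and 69.8% ± 6.83 with stearic acid (SD, n = 3). At this locus 2 of the 3 transcripts fell.

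At Miat, TCONS_00203906 had a share of 18.3% ± 26.1 in the controls and 76.9% ± 12.3 with stearic acid, on counts of 22.2, 0 and 2.44 against 66.9, 71.1 and 73.7. No transcript of Miat passed alone. Pvt1, with 21 transcripts, was the only locus with calls in both directions, both near the threshold. TCONS_00088508 rose from 30.2, 27.3 and 32.0 CPM to 71.0, 75.6 and 83.9 CPM (edgeR adjusted p = 0.0385). TCONS_00088523 fell from 50.8, 12.7 and 12.9 CPM to 0 CPM in all stearic acid libraries (edgeR adjusted p = 0.0478). Here too the division of reads among transcripts cannot be told apart from a change of transcripts. At the locus 24063 bp from Cysltr2, a leukotriene receptor gene, which holds the transcript of the series title, the 7 transcripts together rose from 34.3, 29.2 and 35.7 CPM to 77.3, 56.3 and 67.1 CPM. The groups did not overlap (log2 change 1.02 ± 0.19, edgeR adjusted p = 7.53e-04). TCONS_00077866 itself held 0 counts in the controls, 11.45, 0 and 0 with palmitic acid and 30.6, 34.6 and 37.4 with stearic acid. Against 3 counts in all controls together, its mean CPM with stearic acid was 40.8-fold higher. This is not a lower bound, since the floor does not cover the division of reads among transcripts. The mean of the whole locus was 2.02-fold higher. TCONS_00077866 did not pass in the fit of transcripts (edgeR adjusted p = 0.114). The authors' deposited table lists it with a log2 change of 4.05 and an adjusted p of 5.95e-10.

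The authors' deposited table for the same comparison lists 189 transcripts, 101 higher and 88 lower, at 153 loci, all with an absolute log2 change of at least 1.00. Of the 153 loci in the authors' deposited table, 106 changed in the fit of loci. Of the transcripts in the authors' deposited table, 137 lie in changed loci, 134 of them with the direction of the locus, 43 in tested loci that did not pass and 9 in loci below the filter. The other 253 changed loci hold no transcript of the authors' deposited table.

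Palmitic acid, given at the same concentration and for the same time, allows the response of many of these loci to be set beside that to the shorter acid. Both acids were compared with the same 3 controls, so only the values are given. With palmitic acid 171 loci changed (5.65%), 114 higher (3.76%) and 57 lower (1.88%). The Mafa antisense locus held 928, 965 and 988 CPM with palmitic acid, Gm12962 125, 141 and 93.5 CPM, and Gm11588 83.4, 70.2 and 74.8 CPM. In each of the 3 loci the palmitic acid libraries lay between the controls and the stearic acid libraries. This was not so at every locus. The palmitic acid libraries overlapped the stearic acid libraries at the loci antisense to March4 (2583, 2604 and 3525 CPM), antisense to Chga (226, 249 and 257 CPM) and near Fasl (1.84, 4.96 and 7.23 CPM). At the locus near Cldn5 the palmitic acid values were 2.94, 2.67 and 5.1 CPM.

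Stearic and palmitic acid differ in chain length, and the pair was tested directly over all 3029 loci. The difference passed at 3 loci (0.099%), 2 higher with stearic acid (0.066%) and 1 lower (0.033%), while 221 had an unadjusted p under 0.05 in edgeR and 5 passed by DESeq2. The locus near Dhx40 held 322, 283 and 309 CPM with palmitic acid and 583, 572 and 516 CPM with stearic acid, a log2 difference of 0.87 ± 0.13 (edgeR adjusted p = 0.00406). The locus head to head with Gstp3 differed by 0.71 ± 0.13 (edgeR adjusted p = 0.00938) and the Mafa antisense locus by −0.76 ± 0.12 (edgeR adjusted p = 0.00466), each without overlap of the acids. Without palmitic acid replicate 2, 0 loci passed, and without stearic acid replicate 3, 1 did.

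For other loci a difference between the acids was not shown, which is no evidence that they act alike. Miat held 23.9, 21.8 and 19.1 CPM with palmitic acid, all below the stearic acid libraries, and the difference of 1.12 (unadjusted 95% interval 0.60 to 1.63) did not pass (edgeR adjusted p = 0.108). E230016M11Rik held 28.7, 25.2 and 24.2 CPM with palmitic acid, above the stearic acid libraries, with a difference of −1.08 (−1.63 to −0.54, edgeR adjusted p = 0.19). Igf2os differed by −0.51 (−0.78 to −0.25, edgeR adjusted p = 0.19).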

How the data were processed

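Strand-specific libraries of total RNA depleted of ribosomal RNA were sequenced. Per the submitters' processing notes, reads were handled with bcl2fastq 2.17.1.14, Trimmomatic 0.30, HISAT2 2.0.1, HTSeq 0.6.1 and DESeq, on mm10. The sources used here name no tool for the transcript table and no strand setting. The authors' deposited table gives an expected count per lncRNA transcript and library, 77.7% of them whole numbers. The authors' deposited table of stearic acid against control gives a mean signal per transcript, a log2 fold change, its standard error (a score here), a p-value and an adjusted p-value, and was used only where named.

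Expected counts were rounded, summed per locus, filtered with filterByExpr, scaled by TMM and fitted in edgeR 4.0.16, under R 4.3.3 (quasi-likelihood, all 9 libraries, group means, 6 residual degrees of freedom, two-sided, Benjamini-Hochberg adjusted p under 0.05). CPM use TMM-scaled library sizes. Named loci are, among changed loci, the 8 largest rises and 8 largest falls at or above their median CPM, the 5 with the highest CPM, the 4 with the smallest adjusted p in each direction, list members, loci at 0 in a group, loci with transcripts called both ways and the locus of the title. Members, lists and rules were chosen with earlier results of these data known. On simulated data the fit of loci called 47% of 2-fold and 82% of 4-fold changes. Alternatives were DESeq2 1.42.0, other scaling and filters, 6 libraries alone, a replicate block, stricter thresholds and single libraries left out. Positions were compared with GENCODE M21: 10462 of 10600 Ensembl identifiers matched. Figures used matplotlib 3.10.9.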

Additional observations from a re-analysis of the deposited data

How the results depend on the processing

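The count of changed loci, 359, stayed between 310 (library size alone) and 371 (no filter on low counts) under other scalings, filters, DESeq2 (364) and a fit of the 6 libraries alone (318). Of the 359 loci, 336 were also called by DESeq2. At an adjusted p under 0.01 there were 175 (89 higher, 86 lower), and with an absolute log2 change above 1 there were 198 (122 and 76). Without single libraries the count was 234 to 331 (124 to 180 higher, 110 to 151 lower), and 161 loci (80 higher, 81 lower) passed in all 6 of these fits. Transcripts moved more than the 63 (36 higher, 27 lower) of the report: 34 (22 and 12) with library size alone, 115 (65 and 50) without a filter, 28 (14 and 14) with 6 libraries, 230 (133 and 97) by DESeq2, 10 (5 and 5) at an adjusted p under 0.01, and 8 to 33 (4 to 17 and 4 to 16) without single libraries. The cause was not tested. Palmitic acid against control gave 104 to 238 loci without single libraries. Stearic against palmitic acid gave 13 loci without a filter, 5 by DESeq2 and 0 to 4 without single libraries.

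The replicate numbers were not taken as pairs, and whether they pair the samples is not settled. Deviations of same-numbered libraries correlated at −0.0385 to 0.0905 over all groups. Between control and stearic acid they correlated at 0.0202 to 0.0905, and those of differently numbered libraries at −0.0663 to 0.00713. With the replicate block 359 loci were called (337 of them shared with the fit without it) and 16 transcripts (9 higher, 7 lower). Of 474 values of the 34 named loci under alternatives, 442 kept their call, 32 lost it and 0 reversed, and 26 loci passed throughout. Counts summed before rounding, and the palmitic acid libraries left out, were alternatives chosen after seeing the data. Depth limits the weak loci: in simulated data at or above the median level 76.6% of 2-fold changes were called, against 47% over all loci.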

Other observations

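The loci described next were picked with their values known, not by the rule for names, so they carry no test as groups. The locus antisense to Tacc3, a gene of the mitotic spindle, held 200.2, 252 and 241 CPM in the controls and 132, 133 and 119 CPM with stearic acid (a log2 change of −0.85, edgeR adjusted p = 3.9e-04). The first of 2 loci antisense to Kif18b, a mitotic kinesin gene, held 93.8, 91.6 and 87.3 CPM against 52.2, 40.2 and 55.6 CPM (−0.87, edgeR adjusted p = 0.00193). Neither pair of groups overlapped. The locus antisense to Ccnf, a cyclin gene, changed by −1.52 (edgeR adjusted p = 0.0028) and that at Dlgap5, a spindle gene, by −0.63 (edgeR adjusted p = 0.031). Lockd, beside the cell cycle inhibitor gene Cdkn1b, changed by −0.55 (edgeR adjusted p = 0.00956).

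Gm10552, antisense to Sp140, a gene of a nuclear body protein of immune cells, held 94.3, 114 and 96.2 CPM in the controls and 194, 207 and 233 CPM with stearic acid (a log2 change of 1.06, edgeR adjusted p = 2.25e-05), without overlap. Its neighbours rose as well, Gm17017 by 1.04 and the locus antisense to Sp110 by 0.80 (edgeR adjusted p = 0.0301 and 0.0458). Loci antisense to Usp18 and to H2-D1, a class I histocompatibility gene, changed by 0.77 and 0.76 (edgeR adjusted p = 0.0279 and 0.021).

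Among lncRNAs with names of their own, 6330403N20Rik fell from 181, 187 and 158.9 CPM to 76.4, 65.0 and 69.6 CPM (log2 change −1.32, edgeR adjusted p = 2.4e-06) and Dtnbos from 186, 168 and 163 CPM to 82.6, 76.4 and 85.7 CPM (−1.07, edgeR adjusted p = 3.88e-05). In both, every stearic acid library was below every control. The locus antisense to Vgf, a gene of a secreted neuroendocrine protein, rose by 1.35 (edgeR adjusted p = 0.0142).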
